A study of Mus musculus with 12 samples.

Results

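Transforming growth factor beta (TGF-beta) signalling was described in the spinal cord through 10 genes, of 45906 genes in the table of counts. The genes were chosen for their place in the pathway, with earlier results of these data known. They were the ligands Tgfb1, Tgfb2 and Tgfb3, the receptors Tgfbr1 and Tgfbr2, the intracellular mediators Smad2, Smad3 and Smad7, and the anchoring proteins Nrros and Lrrc32. All 10 genes passed the filter on low counts, which kept 20155 genes.

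RNA of whole spinal cord was sequenced from 12 mice at 7 months of age, with 3 mice in each of 4 genotypes. The genotypes were Plekhg5+/+, Plekhg5-/-, Plekhg5+/+ SOD1-G93A and Plekhg5-/- SOD1-G93A. SOD1-G93A mice carry a human SOD1 transgene with a mutation that causes amyotrophic lateral sclerosis (ALS), here in the low-copy line with slow disease. Plekhg5 encodes an activator of Rab26 that acts in autophagy, and its deficiency affects all cells of the mouse. The comparisons asked how the transgene alters spinal cord transcripts and how loss of Plekhg5 modifies this.

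TGF-beta ligands are secreted in a latent form, bound to their own propeptide. Anchoring proteins hold the latent ligand on the cell surface or in the matrix, and integrins can release it. NRROS (also LRRC33) does so on microglia and other myeloid cells, and LRRC32 (GARP) on regulatory T cells, platelets and endothelial cells. The released ligand binds TGFBR2, which recruits and phosphorylates TGFBR1. The active receptor phosphorylates SMAD2 and SMAD3, which enter the nucleus with SMAD4, whereas SMAD7 blocks the receptor. In the central nervous system, TGF-beta signalling maintains the expression profile of resting microglia.

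The upstream sequences of Tgfb1, Tgfbr1 and Tgfbr2 are shown because these 3 genes were higher in Plekhg5+/+ SOD1-G93A than in Plekhg5+/+ mice. Each sequence holds the 250 bases before the annotated start in RefSeq on GRCm38.p6, read 5′ to 3′ on the strand of the gene. Those are chr7:25686752-25687001 on the plus strand for Tgfb1, chr4:47352972-47353221 on the plus strand for Tgfbr1 and chr9:116175364-116175613 on the minus strand for Tgfbr2. Capitals mark matches, on either strand, to the GC box (GGGCGG), to a PU.1-type ETS core (GAGGAAG), to the Smad box (CAGAC) and to the AP-1 element (TGANTCA).
Tgfb1: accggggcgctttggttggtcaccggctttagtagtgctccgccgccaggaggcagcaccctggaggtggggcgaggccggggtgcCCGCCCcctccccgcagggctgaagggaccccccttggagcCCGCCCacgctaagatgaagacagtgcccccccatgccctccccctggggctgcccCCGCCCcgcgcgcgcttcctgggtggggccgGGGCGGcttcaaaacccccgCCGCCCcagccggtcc
Tgfbr1: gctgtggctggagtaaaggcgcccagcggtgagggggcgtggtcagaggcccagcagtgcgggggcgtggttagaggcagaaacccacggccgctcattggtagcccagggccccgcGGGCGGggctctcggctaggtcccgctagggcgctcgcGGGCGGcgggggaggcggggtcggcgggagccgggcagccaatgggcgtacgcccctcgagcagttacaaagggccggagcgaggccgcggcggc
Tgfbr2: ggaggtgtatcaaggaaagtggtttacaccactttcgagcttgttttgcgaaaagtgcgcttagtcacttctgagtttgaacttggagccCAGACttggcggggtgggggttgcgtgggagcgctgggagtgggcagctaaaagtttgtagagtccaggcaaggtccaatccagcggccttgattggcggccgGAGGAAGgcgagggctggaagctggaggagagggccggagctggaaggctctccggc

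The GC box, a site of SP1-family factors, had 5 matches upstream of Tgfb1 and 2 upstream of Tgfbr1, and was found in 32.7% of 32851 sequences of the same length. The ETS core, the kind of site bound by the myeloid factor PU.1, had 1 match upstream of Tgfbr2 and occurred in 10.6% of all sequences. The Smad box also had 1 match there, and occurred in 42.2%. The AP-1 element occurred in 6.75% and had 0 matches in the 3 sequences. GC content was 75.2% for Tgfb1, 74.8% for Tgfbr1 and 58.4% for Tgfbr2, against a median of 52.4%. Upstream of a second annotated start of Tgfbr1 (not shown) 1 ETS core and 1 Smad box were found. Smad3 had 2 GC boxes, Tgfb2 had 2 Smad boxes and Nrros had 1. These sequences cover 6 of the 10 members, and Tgfb3, Lrrc32, Smad2 and Smad7 were not searched. These matches describe letters and were not tested for binding.

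Libraries held 30415643 to 38743628 counts. Markers of spinal cord were present, with 21670 to 30880 summed CPM for 6 oligodendrocyte markers, 4699 to 6039 for 8 markers of neurons and motoneurons and 19.6 to 32.6 CPM for Chat, the enzyme of acetylcholine synthesis in motoneurons. Plekhg5 was at 19.4 to 25.0 CPM (counts scaled to library size) in Plekhg5+/+ mice with or without the transgene, and at 3.28 to 4.72 CPM in Plekhg5-/- mice. The summed CPM of 12 microglia markers was 544 to 630 in Plekhg5+/+, 596 to 819 in Plekhg5-/-, 1036 to 1940 in Plekhg5+/+ SOD1-G93A and 770 to 861 in Plekhg5-/- SOD1-G93A mice. Replicate 1 of Plekhg5+/+ SOD1-G93A stood apart with the sum of 1940, and values without this library are given below. Libraries with Y-linked transcripts numbered 3, 2, 2 and 1 of 3 in the order Plekhg5+/+, Plekhg5-/-, Plekhg5+/+ SOD1-G93A and Plekhg5-/- SOD1-G93A, so sex was not balanced.

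In the Plekhg5+/+ spinal cord, the 10 transcripts were at low to middle levels. Per kilobase of exon, Tgfb3 was highest (8.45 ± 1.64 CPM per kb, SD, n = 3) and Lrrc32 lowest (0.961 ± 0.158). Between them the order of these levels per kilobase was Smad7 (7.94), Tgfbr1 (7.01), Tgfbr2 (5.75), Smad2 (4.20), Smad3 (4.06), Tgfb1 (2.62), Tgfb2 (1.52) and Nrros (1.05). The ranges of neighbours overlapped for Tgfb3 and Smad7, for Smad2 and Smad3, and for Nrros and Lrrc32, and not for the other neighbours.

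Tgfb1, Tgfbr1 and Tgfbr2 were higher in Plekhg5+/+ SOD1-G93A than in Plekhg5+/+ mice, and no member was lower past the test (edgeR's quasi-likelihood test, adjusted p under 0.05). These are 3 of 10 members, where 2.47% of all genes tested were called in either direction. The median log2 fold change was 0.22 over the members and 0.00 over all genes. The groups did not overlap for 6 members, 5 higher and 1 lower, and 20.6% of all genes did not overlap in either direction. The 3 calls came from a fit of all 4 genotypes together, and why they depended on the libraries fitted was not tested. With only the 6 libraries of the comparison in the fit, none passed, with adjusted p between 0.0898 and 0.156 for the 3 genes. Without any 1 of the 3 Plekhg5+/+ libraries none passed either, with adjusted p of 0.0502 to 0.103 for Tgfb1, 0.0563 to 0.119 for Tgfbr2 and 0.0804 to 0.152 for Tgfbr1 (edgeR).

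Tgfb1 (chromosome 7, 25687002 to 25705077), the ligand that microglia and other immune cells produce, had 6.18, 5.73 and 5.18 CPM in Plekhg5+/+ mice and 16.0, 9.27 and 9.81 CPM in Plekhg5+/+ SOD1-G93A mice. It had 5.12, 5.60 and 6.25 CPM in Plekhg5-/- mice and 10.02, 8.44 and 7.04 CPM in Plekhg5-/- SOD1-G93A mice. All 6 libraries with the transgene were above all 6 without it, and replicate 1 of Plekhg5+/+ SOD1-G93A was highest. In Plekhg5+/+ mice the log2 fold change was 1.04 (SE 0.196, adjusted p = 0.0198, edgeR). Without replicate 1 of Plekhg5+/+ SOD1-G93A it was 0.74 (adjusted p = 0.0353, edgeR). Averaged over both Plekhg5 genotypes it was 0.81 (SE 0.139, adjusted p = 0.028, edgeR), where 1.22% of all genes were called. This average was not called without any 1 of the Plekhg5+/+ libraries, without replicate 2 or 3 of Plekhg5-/- or without replicate 1 or 2 of Plekhg5-/- SOD1-G93A, with adjusted p of 0.0506 to 0.084.

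Tgfb2 (chromosome 1, 186622787 to 186709697), the ligand known mainly from neurons and glia, had 13.3, 11.8 and 15.5 CPM in Plekhg5+/+ and 20.6, 18.4 and 16.0 CPM in Plekhg5+/+ SOD1-G93A mice. It had 14.6, 18.4 and 18.1 CPM in Plekhg5-/- and 17.9, 16.6 and 19.0 CPM in Plekhg5-/- SOD1-G93A mice. The Plekhg5+/+ mice were thus at the lower end of the range, and the first 2 groups did not overlap. The log2 fold change with the transgene was 0.44 (SE 0.125) in Plekhg5+/+ mice, with an adjusted p of 0.0874 in edgeR and 0.033 in DESeq2, so the call depended on the tool. Tgfb3 (chromosome 12, 86056743 to 86079041), the third ligand, ranged from 24.1 to 34.8 CPM. Its 12 values overlapped between all genotypes, and its log2 fold change with the transgene was -0.12 in Plekhg5+/+ mice (95% interval -0.37 to 0.14).

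**Figure D1:**
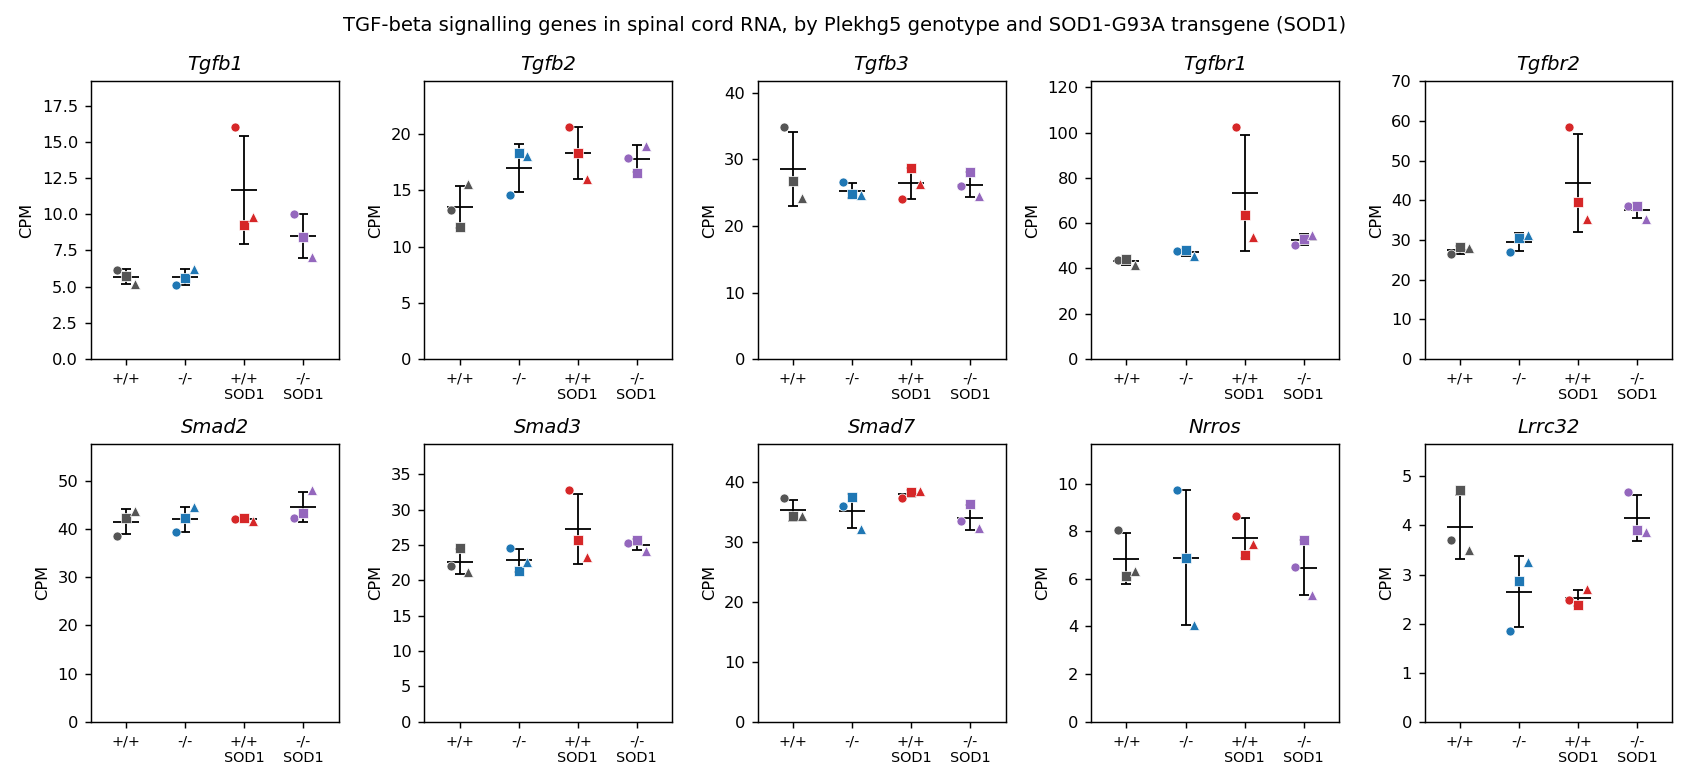
CPM of the 10 genes (y axes, each starting at 0) in the 12 libraries by genotype (x axis; SOD1 stands for SOD1-G93A). Circles, squares and triangles are replicates 1, 2 and 3, and bars are the mean and SD of 3 mice. Tgfb1, Tgfbr1 and Tgfbr2 were highest in Plekhg5+/+ SOD1-G93A replicate 1 (16.0, 102.3 and 58.4 CPM), and Lrrc32 was low in Plekhg5-/- and in Plekhg5+/+ SOD1-G93A mice.

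The share of Tgfb1 among the ligand transcripts was compared per library. Divided by exon length, Tgfb1 made up 19.4, 22.2 and 21.1% of the 3 ligands in Plekhg5+/+ mice and 43.8, 28.8 and 32.0% in Plekhg5+/+ SOD1-G93A mice. The share was 19.9, 21.6 and 23.6% in Plekhg5-/- mice and 32.2, 27.6 and 25.7% in Plekhg5-/- SOD1-G93A mice. Every transgenic library lay above every library without the transgene. The share is formed from the same Tgfb1 counts as above, so it is not independent of the difference in Tgfb1. The mean difference was 10.4 percentage points, with p = 0.005 in a two-sided exact permutation test within Plekhg5 genotypes, the smallest p its 400 arrangements allow. Adjusted over the 14 tests of such composite measures it was 0.07. A single test at the smallest p cannot get below this value here, so the correction could not decide on the difference. From counts not divided by exon length the difference was 6.47 percentage points, with the same adjusted p. Between Plekhg5-/- and Plekhg5+/+ mice, averaged over mice with and without the transgene, the share differed by -2.81 percentage points (adjusted exact permutation p = 0.614).

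**Figure D2:**
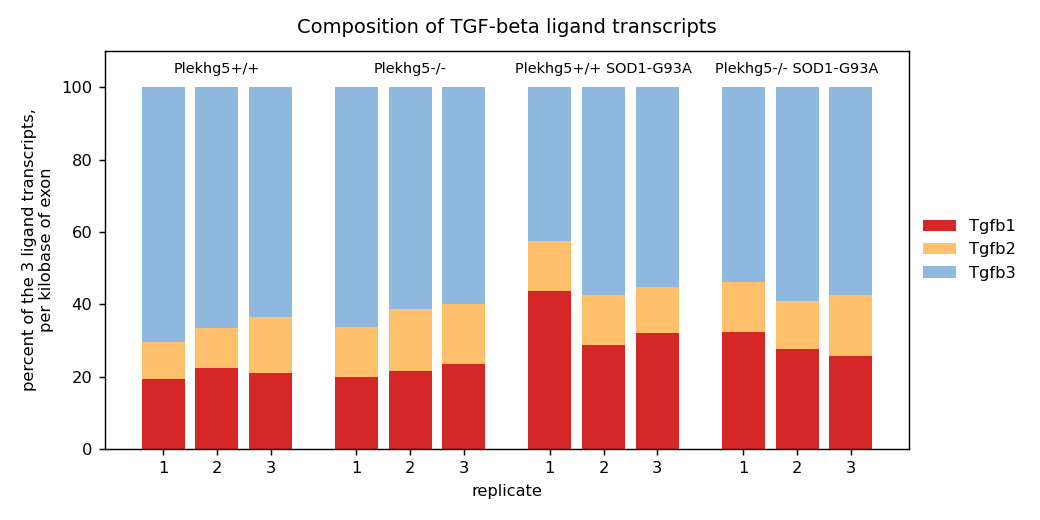
Percent of the 3 ligand transcripts, per kilobase of exon (y axis), in each library (x axis, replicates by genotype). The lowest segment is Tgfb1, which took 19.4 to 23.6% without the transgene and 25.7 to 43.8% with it.

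The receptor Tgfbr1 (chromosome 4, 47353222 to 47414926), whose kinase phosphorylates SMAD2 and SMAD3, had 43.8, 44.1 and 41.5 CPM in Plekhg5+/+ mice and 102.3, 63.7 and 54.1 CPM in Plekhg5+/+ SOD1-G93A mice. It had 47.9, 48.3 and 45.3 CPM in Plekhg5-/- mice and 50.5, 52.9 and 55.0 CPM in Plekhg5-/- SOD1-G93A mice. The transgenic libraries did not overlap their controls in either Plekhg5 genotype, and the distance was small without Plekhg5. In Plekhg5+/+ mice the log2 fold change was 0.77 (SE 0.172, adjusted p = 0.0412, edgeR), and 0.45 without replicate 1 of Plekhg5+/+ SOD1-G93A (adjusted p = 0.0152). Without any filter on low counts its adjusted p was 0.0855 in edgeR. It was 0.0501 to 0.064 without any 1 of the 6 Plekhg5-/- libraries, with or without the transgene. Averaged over both Plekhg5 genotypes the log2 fold change was 0.46 (adjusted p = 0.0867, edgeR). Without replicate 1 or 3 of Plekhg5+/+ SOD1-G93A the average was called (0.31 with adjusted p = 0.0117, and 0.55 with adjusted p = 0.0148).

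Tgfbr2 (chromosome 9, 116087695 to 116175363), the receptor that binds the ligand first, had 26.5, 28.2 and 28.0 CPM in Plekhg5+/+ mice and 58.4, 39.6 and 35.3 CPM in Plekhg5+/+ SOD1-G93A mice. It had 27.0, 30.6 and 31.2 CPM in Plekhg5-/- mice and 38.7, 38.6 and 35.2 CPM in Plekhg5-/- SOD1-G93A mice. As for Tgfb1, all transgenic libraries were above all others. The log2 fold change was 0.69 in Plekhg5+/+ mice (SE 0.145, adjusted p = 0.0295, edgeR) and 0.52 as the average over both Plekhg5 genotypes (SE 0.102, adjusted p = 0.0355). Without replicate 1 of Plekhg5+/+ SOD1-G93A the first was 0.44 (adjusted p = 0.0265, edgeR). The average was called without any 1 of the Plekhg5+/+ SOD1-G93A libraries, and not without any 1 of the other 9, where its adjusted p was 0.0513 to 0.0973. The ratio of Tgfbr1 to Tgfbr2 per kilobase was 1.22 ± 0.0675 in Plekhg5+/+, 1.27 ± 0.0863 in Plekhg5+/+ SOD1-G93A, 1.25 ± 0.126 in Plekhg5-/- and 1.10 ± 0.102 in Plekhg5-/- SOD1-G93A mice (SD, n = 3).

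No Smad transcript passed the test in any comparison. Smad2 (chromosome 18, 76241090 to 76311748), a mediator activated by the receptor, ranged from 38.7 to 48.1 CPM, with a log2 fold change of 0.02 with the transgene in Plekhg5+/+ mice (95% interval -0.13 to 0.17). Smad3 (chromosome 9, 63646766 to 63757994), the other mediator, had 22.0, 24.6 and 21.2 CPM in Plekhg5+/+ mice and 32.8, 25.7 and 23.3 CPM in Plekhg5+/+ SOD1-G93A mice. The groups overlapped, and its log2 fold change was 0.27 (SE 0.111, adjusted p = 0.22, edgeR), or 0.12 without replicate 1 of Plekhg5+/+ SOD1-G93A. Smad7 (chromosome 18, 75367365 to 75395935), the inhibitor that the pathway itself induces, had 37.3, 34.3 and 34.3 CPM in Plekhg5+/+ mice and 37.3, 38.3 and 38.4 CPM in Plekhg5+/+ SOD1-G93A mice. These groups lay next to each other, with a log2 fold change of 0.11 (95% interval -0.05 to 0.26).

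Nrros (chromosome 16, 32142785 to 32165594), the anchoring protein of microglia, had 8.06, 6.12 and 6.34 CPM in Plekhg5+/+ mice and 8.64, 7.00 and 7.47 CPM in Plekhg5+/+ SOD1-G93A mice. It had 9.73, 6.86 and 4.08 CPM in Plekhg5-/- mice and 6.48, 7.62 and 5.31 CPM in Plekhg5-/- SOD1-G93A mice. All 4 genotypes overlapped, with the lowest and the highest value both in Plekhg5-/- mice. Its log2 fold change with the transgene in Plekhg5+/+ mice was 0.17 (95% interval -0.36 to 0.70). The deposited counts of Nrros were fractional in 12 of 12 libraries, so part of its reads had several alignments or lay on several annotated features, which these counts do not tell apart, and its level is uncertain.

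Changes in bulk RNA cannot tell more cells of a type from more RNA per cell. Of the 12 microglia markers, 11 were called higher in Plekhg5+/+ SOD1-G93A than in Plekhg5+/+ mice, where 2.09% of all genes were. Their median log2 fold change was 1.23. Against these markers, Tgfb1 had 9.59 ± 1.21 counts per 1000 microglia marker counts in Plekhg5+/+, 8.68 ± 0.381 in Plekhg5+/+ SOD1-G93A, 8.25 ± 2.12 in Plekhg5-/- and 10.3 ± 1.26 in Plekhg5-/- SOD1-G93A mice (SD, n = 3). The difference with the transgene was -0.909 in Plekhg5+/+ and 2.065 in Plekhg5-/- mice. Averaged over both Plekhg5 genotypes it was 0.578 (adjusted exact permutation p = 0.677). Tgfbr1 had 72.7 ± 7.78 such counts in Plekhg5+/+ and 54.3 ± 6.53 in Plekhg5+/+ SOD1-G93A mice, with 67.9 ± 8.87 in Plekhg5-/- and 64.5 ± 6.42 in Plekhg5-/- SOD1-G93A mice. Tgfbr2 had 46.4 ± 4.81 and 33.4 ± 4.29 in Plekhg5+/+ mice without and with the transgene, and 43.0 ± 9.74 and 45.7 ± 0.796 in Plekhg5-/- mice. Nrros had 11.5 ± 1.52 and 5.98 ± 1.32 in Plekhg5+/+ mice without and with the transgene, and 9.50 ± 2.53 and 7.86 ± 1.18 in Plekhg5-/- mice. Over both Plekhg5 genotypes the differences with the transgene were -10.9 for Tgfbr1 (adjusted exact permutation p = 0.28), -5.15 for Tgfbr2 (adjusted exact permutation p = 0.61) and -3.56 for Nrros (adjusted exact permutation p = 0.175), and none of these passed. Of 8 astrocyte markers, 2 were called higher in Plekhg5+/+ SOD1-G93A than in Plekhg5+/+ mice, with sums of 6893 to 9640 against 5060 to 5917 CPM. In Plekhg5-/- mice 0 of 8 were called (edgeR), with sums of 6136 to 6166 CPM with the transgene and 5154 to 6998 CPM without it. The part of cell number in these values was not tested.

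**Figure D3:**
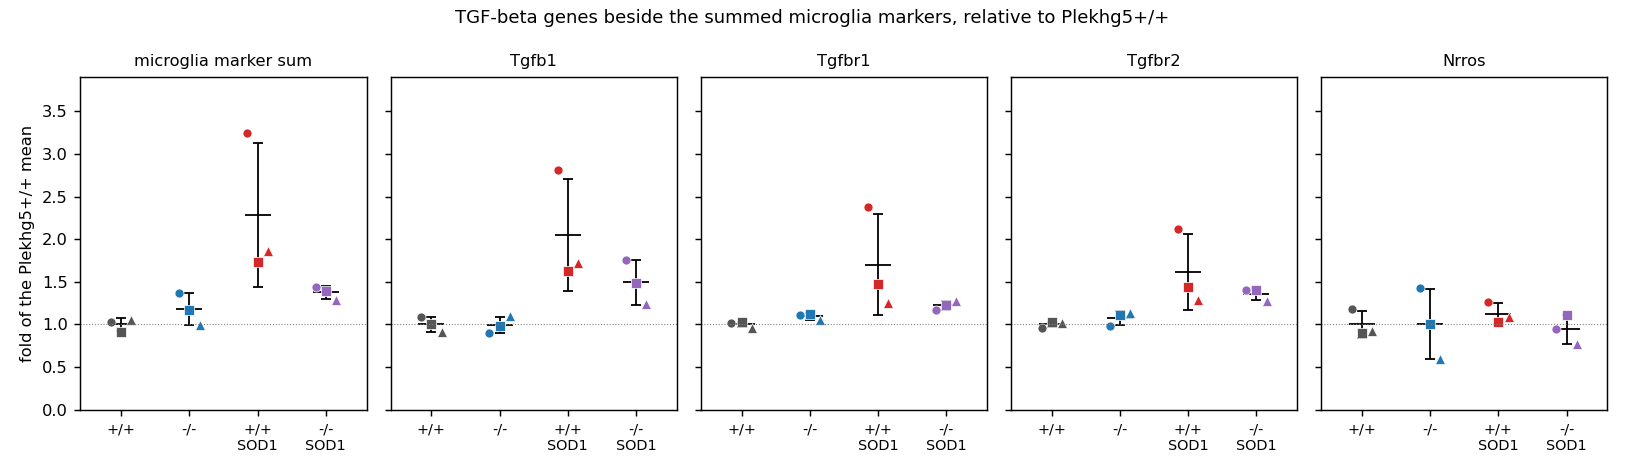
Each library as a fold of the Plekhg5+/+ mean (y axis), by genotype (x axis), for the summed CPM of 12 microglia markers and for Tgfb1, Tgfbr1, Tgfbr2 and Nrros. Symbols are replicates 1, 2 and 3, with mean and SD. Replicate 1 of Plekhg5+/+ SOD1-G93A was highest in the first 4 panels, and Nrros overlapped between genotypes.

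Lrrc32 (chromosome 7, 98489305 to 98501831), the anchoring protein GARP, had a different order of genotypes. It had 3.71, 4.72 and 3.49 CPM in Plekhg5+/+ mice and 2.49, 2.38 and 2.699 CPM in Plekhg5+/+ SOD1-G93A mice. It had 1.84, 2.87 and 3.25 CPM in Plekhg5-/- mice and 4.69, 3.92 and 3.86 CPM in Plekhg5-/- SOD1-G93A mice. With the transgene all libraries were thus lower in Plekhg5+/+ mice and all higher in Plekhg5-/- mice. Opposite directions without overlap, in either order, were found for 0.729% of all genes. The values rest on 63 to 152 counts per library.

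The log2 fold change of Lrrc32 with the transgene was -0.66 in Plekhg5+/+ mice (SE 0.195, adjusted p = 0.0976, edgeR) and 0.65 in Plekhg5-/- mice (SE 0.193, adjusted p = 0.667). Plekhg5 loss gave -0.58 without the transgene (adjusted p = 0.836, edgeR) and 0.72 with it (adjusted p = 0.402). The interaction of both was 1.30 (SE 0.274, unadjusted p = 0.000408, adjusted p = 0.338, edgeR), where 0% of all genes were called. DESeq2 gave an adjusted p of 0.0129 for the interaction and 0.0425 for the transgene in Plekhg5+/+ mice, so the call depended on the tool.

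Markers of cells known to express Lrrc32, and of nerve roots, are given beside it. The summed CPM of 10 endothelial markers was 244 to 267 in Plekhg5+/+, 177 to 294 in Plekhg5-/-, 193 to 237 in Plekhg5+/+ SOD1-G93A and 260 to 322 in Plekhg5-/- SOD1-G93A mice. The sum of 4 Schwann cell markers, which stand for nerve roots in the tissue, was 203, 239 and 61.9 in Plekhg5+/+ mice and 48.6, 135 and 105 in Plekhg5+/+ SOD1-G93A mice. It was 50.7, 59.4 and 97.1 in Plekhg5-/- mice and 264, 230 and 351 in Plekhg5-/- SOD1-G93A mice. The sum of 8 T cell markers, of which 4 were tested, was 2.57 to 6.98 CPM over all libraries, and Foxp3, which defines regulatory T cells, was at 0.0153 to 0.219 CPM. The sum of 8 markers of monocytes, neutrophils and platelets was 19.6 to 161 CPM, that of 6 border macrophage markers 9.88 to 20.01 CPM and that of 8 mural and fibroblast markers 218 to 358 CPM, and the latter was highest in Plekhg5-/- SOD1-G93A mice (325 to 358). The part of these cells in the values of Lrrc32 was not tested.

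**Figure D4:**
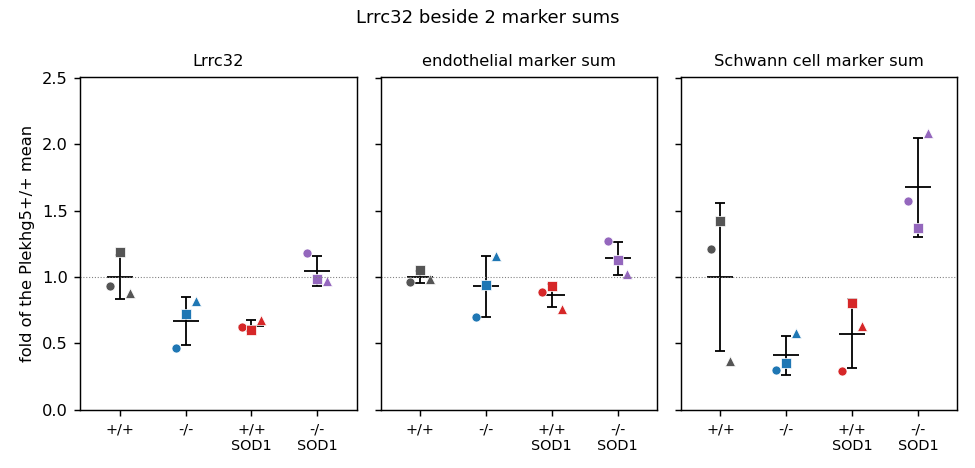
Lrrc32 and the summed endothelial and Schwann cell markers as a fold of the Plekhg5+/+ mean (y axis), by genotype (x axis). Symbols are replicates 1, 2 and 3, with mean and SD. All 3 panels had their highest means in Plekhg5-/- SOD1-G93A mice, and Lrrc32 was lowest in Plekhg5-/- replicate 1.

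Loss of Plekhg5 in SOD1-G93A mice changed no member past the test, with adjusted p between 0.402 and 0.985, against 0.0347% of all genes called. At an unadjusted p under 0.05, where 1741 of 20155 genes lay, 1 member was higher (Lrrc32) and 3 were lower, namely Tgfbr1 with a log2 fold change of -0.48 (95% interval -0.85 to -0.10), Tgfb1 with -0.46 (95% interval -0.88 to -0.05) and Smad7 with -0.16 (95% interval -0.31 to -0.01). Groups did not overlap for Lrrc32 and Smad2 (higher) and Smad7 (lower), where 19.5% of all genes did not overlap. Without replicate 1 of Plekhg5+/+ SOD1-G93A, the log2 fold changes were -0.16 for Tgfbr1, -0.17 for Tgfb1 and -0.17 for Smad7. This comparison shares the Plekhg5+/+ SOD1-G93A libraries with that of the transgene in Plekhg5+/+ mice.

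In Plekhg5-/- mice the transgene changed no member past the test, and 0.00496% of all genes were called (edgeR). At an unadjusted p under 0.05, where 1084 of 20155 genes lay, were 3 members, namely Lrrc32, Tgfb1 and Tgfbr2, all higher. The log2 fold changes were 0.59 for Tgfb1 (95% interval 0.16 to 1.01), 0.34 for Tgfbr2 (95% interval 0.03 to 0.65) and 0.16 for Tgfbr1 (95% interval -0.21 to 0.54). Groups did not overlap for Tgfb1, Tgfbr2, Tgfbr1 and Lrrc32, all higher, where 12.5% of all genes did not overlap. The difference between the transgene's effects in the 2 Plekhg5 genotypes was not called for any member. It was -0.45 for Tgfb1 (adjusted p = 0.616, edgeR), -0.60 for Tgfbr1 (adjusted p = 0.496) and -0.35 for Tgfbr2 (adjusted p = 0.605).

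Without the transgene, loss of Plekhg5 changed no member past the test, and 0.0298% of all genes were called (edgeR). At an unadjusted p under 0.05, where 1073 of 20155 genes lay, were 2 members, namely Tgfb2 (higher, log2 fold change 0.33) and Lrrc32 (lower). Groups did not overlap for Tgfbr1 (higher, log2 fold change 0.13) and Lrrc32 (lower), where 8.74% of all genes did not overlap. Tgfb1 differed by -0.01 (95% interval -0.45 to 0.43) and Nrros by 0.01 (95% interval -0.52 to 0.55).

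**Figure D5:**
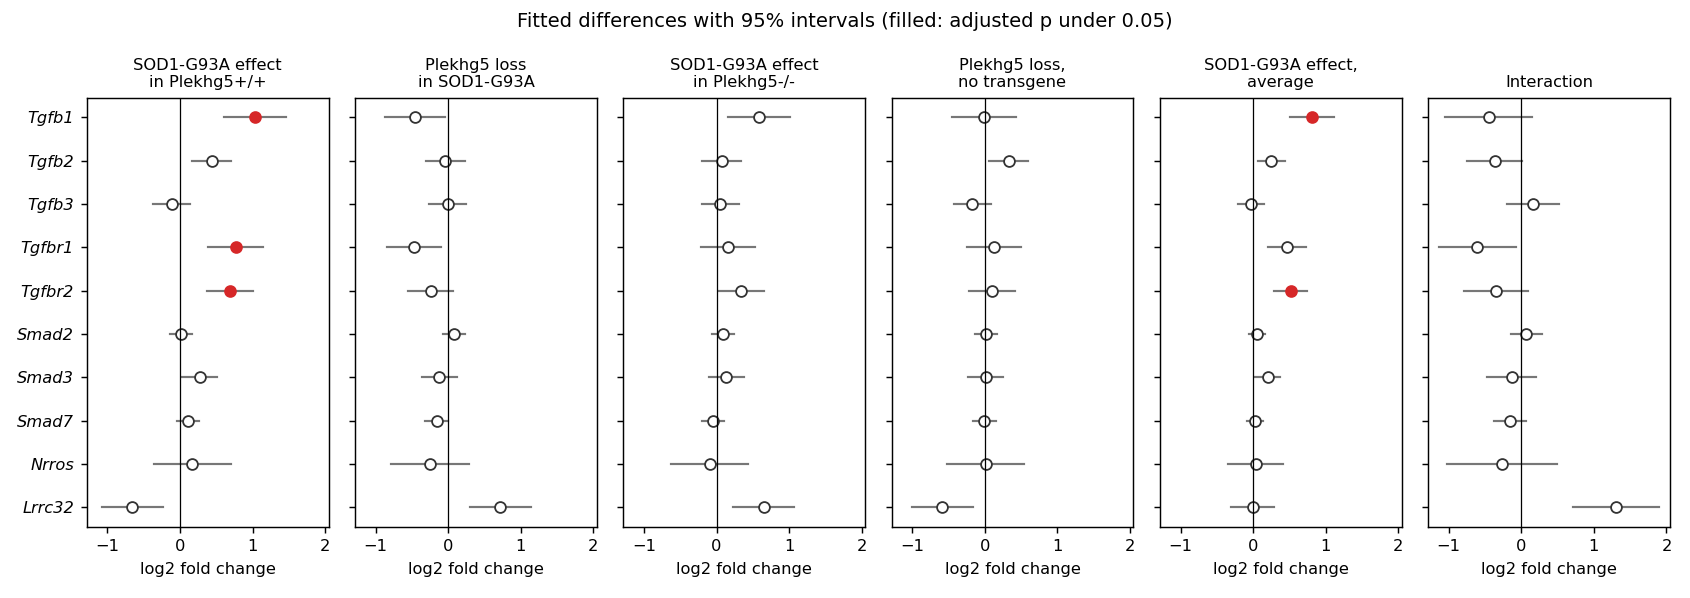
Log2 fold change (x axes) of each gene (rows) in the 6 comparisons, with 95% intervals from the edgeR fit; filled points passed an adjusted p under 0.05. Filled points are Tgfb1, Tgfbr1 and Tgfbr2 for the transgene in Plekhg5+/+ mice and Tgfb1 and Tgfbr2 for its average, and the interaction of Lrrc32 was 1.30.

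Of 108 other pathway genes in 6 lists, 101 were tested. In Plekhg5+/+ SOD1-G93A against Plekhg5+/+ mice, 12 were higher and 1 was lower past the test. Of all genes tested, 2.09% were called higher and 0.377% lower. The list of microglial genes described below held 7 of the 12. The median log2 fold change was 0.04 over the lists and 0.00 over all genes. In the average over both Plekhg5 genotypes 8 were higher and 0 lower, where 1.14% of all genes were called higher and 0.0744% lower. In the other 4 comparisons edgeR called 0 genes of the lists. With only the 6 libraries of the comparison in the fit, 0 of the 13 passed. The gene highest per kilobase of each list was Dcn (33.3 CPM per kb), Bmpr2 (19.3), Ppm1a (31.0), Id2 (75.1), Fstl1 (33.2) and Sparc (522), and none of these 6 was called.

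Among 15 tested genes of latency and activation, Itgb5, an integrin subunit that pairs with the alpha V chain, was higher in Plekhg5+/+ SOD1-G93A mice (log2 fold change 0.61, adjusted p = 0.0409, edgeR). It was 0.38 without replicate 1 of Plekhg5+/+ SOD1-G93A and did not pass (adjusted p = 0.0646, edgeR). Emilin1, a matrix protein that holds back proTGF-beta processing, was higher in the average (0.73, adjusted p = 0.0354). Among 15 other receptors and co-receptors, Cd109, a co-receptor that dampens the signal, was higher in Plekhg5+/+ SOD1-G93A mice (1.24, adjusted p = 0.049, edgeR). Its log2 fold change was 0.68 without replicate 1 of Plekhg5+/+ SOD1-G93A (adjusted p = 0.0224). Of 18 other Smads and regulators and 19 genes of the activin, BMP and GDF branch, 0 were called in any comparison by edgeR.

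Among 22 commonly induced targets, 3 were higher and 1 lower in Plekhg5+/+ SOD1-G93A mice, where 2.09% of all genes were called higher and 0.377% lower. Timp1, an inhibitor of metalloproteinases, had a log2 fold change of 3.08 (adjusted p = 0.014, edgeR), Ccn1, a matricellular protein, 1.80 (adjusted p = 0.0278) and Tagln, an actin-binding protein, 0.94 (adjusted p = 0.034). Id1, an inhibitor of basic helix-loop-helix factors that TGF-beta and BMP regulate, was lower (-0.56, adjusted p = 0.0434, edgeR). Without replicate 1 of Plekhg5+/+ SOD1-G93A the values were 2.20 for Timp1 (adjusted p = 0.00132, edgeR) and 1.09 for Ccn1 (adjusted p = 0.00599), while Tagln (0.86, adjusted p = 0.12) and Id1 (-0.53, adjusted p = 0.156) did not pass. In the average over both Plekhg5 genotypes the 3 called were Timp1 (2.25, adjusted p = 0.0239, edgeR), Tagln (0.70, adjusted p = 0.0401) and Col1a1, a fibrillar collagen chain (0.79, adjusted p = 0.0282), and Ccn1 and Id1 were not called. Tagln did not pass in the average without that library (adjusted p = 0.0599, edgeR). Col1a1 is also 1 of the 8 mural and fibroblast markers, so it is not independent of their sum. Its mean was 14.8 CPM in Plekhg5+/+, 15.5 in Plekhg5-/-, 19.9 in Plekhg5+/+ SOD1-G93A and 34.2 in Plekhg5-/- SOD1-G93A mice.

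Of 12 microglial genes known to depend on TGF-beta, 7 were higher in Plekhg5+/+ SOD1-G93A than in Plekhg5+/+ mice and 0 were lower. Of all genes, 2.09% were called higher. Fcrls, a scavenger receptor of microglia, had a log2 fold change of 2.26 (adjusted p = 0.0206, edgeR), Olfml3 1.16 (adjusted p = 0.0125) and Cx3cr1, the fractalkine receptor, 1.13 (adjusted p = 0.0155). Gpr34 (0.94), Siglech (0.54) and P2ry12 (0.52), the purinergic receptor of resting microglia, were also called. With replicate 1 of Plekhg5+/+ SOD1-G93A left out, Fcrls (1.54, adjusted p = 0.000878, edgeR), Olfml3 (0.93, adjusted p = 0.00293) and Cx3cr1 (0.82, adjusted p = 0.00363) were called, and Gpr34, Siglech and P2ry12 were not (adjusted p of 0.11 to 0.129). In the average 4 of the 12 were called, where 1.22% of all genes were. Among the 4 were Fcrls (1.61), Olfml3 (0.80) and Cx3cr1 (0.67). The list shares genes with the microglia markers, among them P2ry12, Tmem119 and Cx3cr1, so it is not independent of the marker sum. In Plekhg5-/- SOD1-G93A against Plekhg5+/+ SOD1-G93A mice its median log2 fold change was -0.32, with 0 called and 8 of 12 genes lower without overlap, where 2018 of 20155 genes were lower without overlap. That comparison holds the library with the highest microglia sum, Plekhg5+/+ SOD1-G93A replicate 1.

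Over the 12 libraries, Pearson correlations of log2 CPM were computed between each member and all genes tested, as a description. The libraries share genotypes and the high microglial signal of 1 library. The genes most like Tgfb1 were Lyz2 (r = 0.988), Ifi30 (0.982) and Csf2rb (0.981). Tgfbr1 was most like Tgif1 (0.98), Lag3 (0.979) and B2m (0.978), and Tgfbr2 most like Cd72 (0.982), S1pr3 (0.982) and Uba7 (0.98). Lrrc32 was most like Tbx3 (0.917), Rhobtb2 (0.914) and Fgd5 (0.909). The closest gene was Zfp710 for Tgfb2 (0.966), Msantd4 for Tgfb3 (0.884), Ing5 for Smad2 (0.921), Scarb2 for Smad3 (0.943), Riiad1 for Smad7 (0.909) and 2610035D17Rik for Nrros (0.919). Of the 45 pairs of members, 27 had a positive correlation, with the highest between Tgfb1 and Tgfbr2 (0.947).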

How the data were processed

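The authors trimmed single-end reads of poly-A RNA with cutadapt 2.4, mapped them with STAR 2.7.2b to GRCm38.p6 and the human SOD1 cDNA, and counted them by strand with featureCounts 1.6.4, giving reads with several matches as fractions. The deposited values are expected counts per gene, not normalized, and 17.3 to 18.1% of values per library were not whole.

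Counts were rounded, filtered with filterByExpr and scaled by TMM in edgeR 4.0.16 (R 4.3.3), and the 12 libraries were fitted together by quasi-likelihood with 6 contrasts. P-values were adjusted (Benjamini-Hochberg) over 20155 genes. CPM are counts scaled to TMM library size. The members and lists were chosen with earlier results of these data known. Of the genes most like a member, 3 are named for Tgfb1, Tgfbr1, Tgfbr2 and Lrrc32, and only the closest for the other members. Also named are the members, and per list all called genes (the 4 of smallest adjusted p per contrast where more were called) and the gene highest per kilobase. Gpr34, Siglech and P2ry12 go beyond this rule and were named after their values were seen. One called gene is not reported here. Composite measures were tested by exact permutation. The fit was tested on simulated data. Alternatives were DESeq2 1.42.0 with and without a prior, its size factors, other filters, unrounded counts, only the genotypes compared, an indicator of Y-linked transcripts, the replicate number as a block and each library left out. Replicate numbers name different mice. Intervals are 95% from the fit.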

Additional observations from a re-analysis of the deposited data

Results flagged for a closer look

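Lrrc32 was singled out because all 3 libraries of Plekhg5+/+ SOD1-G93A were below all 3 of Plekhg5+/+ mice, whereas all 3 of Plekhg5-/- SOD1-G93A were above all 3 of Plekhg5-/- mice. The difference between these effects was 1.30 on the log2 scale, which edgeR's test of the interaction did not call (adjusted p = 0.338). Groups of 3 were not searched for single outlying libraries.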

How the results depend on the processing

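Counts of called genes were recomputed with 1 choice changed at a time. The shares of all genes called under these settings are not given here. These counts therefore do not show whether a change is particular to the members or lists. For the transgene in Plekhg5+/+ mice (3 members, 13 other pathway genes), DESeq2 with and without its prior and an adjusted p under 0.1 each called 5 members (also Tgfb2 and Lrrc32), no filter left 8 other genes, and a fit of the genotypes compared called 0 and 0. Leaving out 1 library gave 0 to 3 members and 0 to 15 other genes. It gave 0 members without replicate 1, 2 or 3 of Plekhg5+/+, with adjusted p of Tgfb1 at 0.0715, 0.103 and 0.0502. For the average (2 and 8), leaving out 1 library gave 0 to 3 members and 0 to 13 other genes, both forms of DESeq2 gave 15 other genes and an adjusted p under 0.1 gave 14. DESeq2 called 1 member (Lrrc32) in the interaction, with 2 other genes with its prior. It called 3 other genes for Plekhg5 loss in SOD1-G93A mice (6 with the prior) and 4 for the transgene in Plekhg5-/- mice, where leaving out 1 library gave 0 to 1. The cause was not tested.

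The replicate block called 3 members and 16 other genes for the transgene in Plekhg5+/+ mice and 2 and 11 for the average, and changed no member's call. Of 18 correlations between same-numbered libraries, 5 were over 0.1 (-0.163 to 0.318). Correlations between differently numbered libraries ranged from -0.334 to 0.283, so these values do not show whether the numbers pair the mice. Of 1240 member values recomputed, 1144 kept direction and side, 35 lost a call, 14 gained one and 47 changed sign while called in neither case, at most 0.32 in size. Per 1000 microglia counts, Plekhg5 loss gave, with 1 library left out, -0.623 to 0.635 for Nrros and -0.411 to 0.646 for Tgfb1. The planned change of the microglia sum by 1 marker is not reported here. Depth limits Lrrc32, Nrros and Tgfb1 most, with 63 to 152, 129 to 332 and 169 to 515 counts per library.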
